A study of Mus musculus with 12 samples.

Results

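Oxidative phosphorylation is carried out by 5 multi-subunit complexes of the inner mitochondrial membrane, and 83 nuclear genes that encode their subunits were followed here in the hippocampus. They were chosen by name among the 44760 genes present in both deposited tables: rows typed as mRNA whose symbol begins with Nduf followed by a, b, c, s or v and a number (complex I, 36 genes), Sdh (complex II, 4 genes), Uqcr (complex III, 8 genes), Cox4 to Cox8 (complex IV, 18 genes) or Atp5 (complex V, 17 genes). Another 4 matching rows were not typed as mRNA and were left out. A few of the names do not mark a lasting subunit of the complex they suit: Ndufa4 is now placed in complex IV, Cox7a2l encodes a supercomplex factor, and Atp5sl is listed in newer annotation as Dmac2, a complex I assembly factor.

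The mice were male APPswe/PS1dE9 animals on a C57BL/6 (N9B6) background, a model of Alzheimer's disease that carries a mutant amyloid precursor protein together with an exon-deleted presenilin and forms plaques from about 4 months. Every group carried both transgenes, so there was no wild-type group. An osmotic mini pump delivered nicotine hydrogen tartrate (48 mg/kg/h as the label writes it) or saline for 14 days. The 4 groups were nicotine at 18 months, saline at 18 months, nicotine at 7 months and saline at 7 months, with 3 libraries each. The labels do not say whether each library is 1 mouse, so the p-values measure the spread between libraries. RNA from whole hippocampus was counted, and in such bulk samples fewer cells of a type cannot be told apart from less RNA per cell.

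Complex I takes electrons from NADH and complex II takes them from succinate. Complex III passes them to cytochrome c, complex IV passes them on to oxygen, and the proton gradient built by complexes I, III and IV drives ATP synthesis in complex V. Neurons depend on this supply for ion pumping and synaptic transmission. Complexes I, III, IV and V also hold a few subunits encoded in mitochondrial DNA, whereas complex II is encoded in the nucleus alone.

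Total counts ran from 21260068 to 23715015 in the 18-month libraries and from 25071195 to 29245972 in the 7-month libraries. The age groups came in separate tables, so age cannot be told apart from the preparation of the libraries. Transcripts longer than 5000 nt took 33.5 to 34.3% of the counts at 18 months and 21.5 to 22.4% in 5 of the 7-month libraries, but 30.5% in saline library 2 of 7 months, which stands apart from its group. Summed astrocyte markers (5 genes) were at 2173 to 2758 CPM (counts scaled to library size by TMM) at 18 months and 1419 to 1682 CPM at 7 months, but their members differed in direction: Gfap was at 1267 to 1770 CPM at 18 months and 492 to 904 CPM at 7 months, Aldh1l1 at 40.3 to 46.1 CPM and 53.4 to 80.2 CPM, and Slc1a3 overlapped. Hippocampal neuron markers (11 genes, all detected) were at 8903 to 10800 CPM at 18 months and 7588 to 9545 CPM at 7 months. They too were mixed: Camk2a was at 4026 to 4852 CPM at 18 months and 2866 to 4105 CPM at 7 months, and Snap25 at 1407 to 1709 CPM and 1867 to 2056 CPM. The summed choroid plexus markers (10 genes, none at 0 in all libraries) ranged from 107 to 2030 CPM at 18 months and from 142 to 7296 CPM at 7 months, with the highest value in nicotine library 1 at each age. Pituitary markers (6 genes) summed to 176 CPM in 7-month nicotine library 1 and to 1.26 to 3.95 CPM in the other 11 libraries.

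The 83 genes made up 0.694 to 0.730% of all counts in 18-month nicotine libraries and 0.711 to 0.733% in 18-month saline libraries. At 7 months they made up 1.45 to 1.53% in nicotine libraries, and 1.44, 0.983 and 1.44% in saline libraries. Summed over the members, the level was 7217 ± 198 CPM with nicotine and 7144 ± 295 CPM with saline at 18 months, against 15110 ± 270 CPM with nicotine and 12890 ± 2890 CPM with saline at 7 months (SD, n = 3 each). The wide SD of the 7-month saline group comes from library 2, whose summed level in each complex lay below those of the other 5 libraries of that age and above all 18-month libraries.

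**Figure D1:**
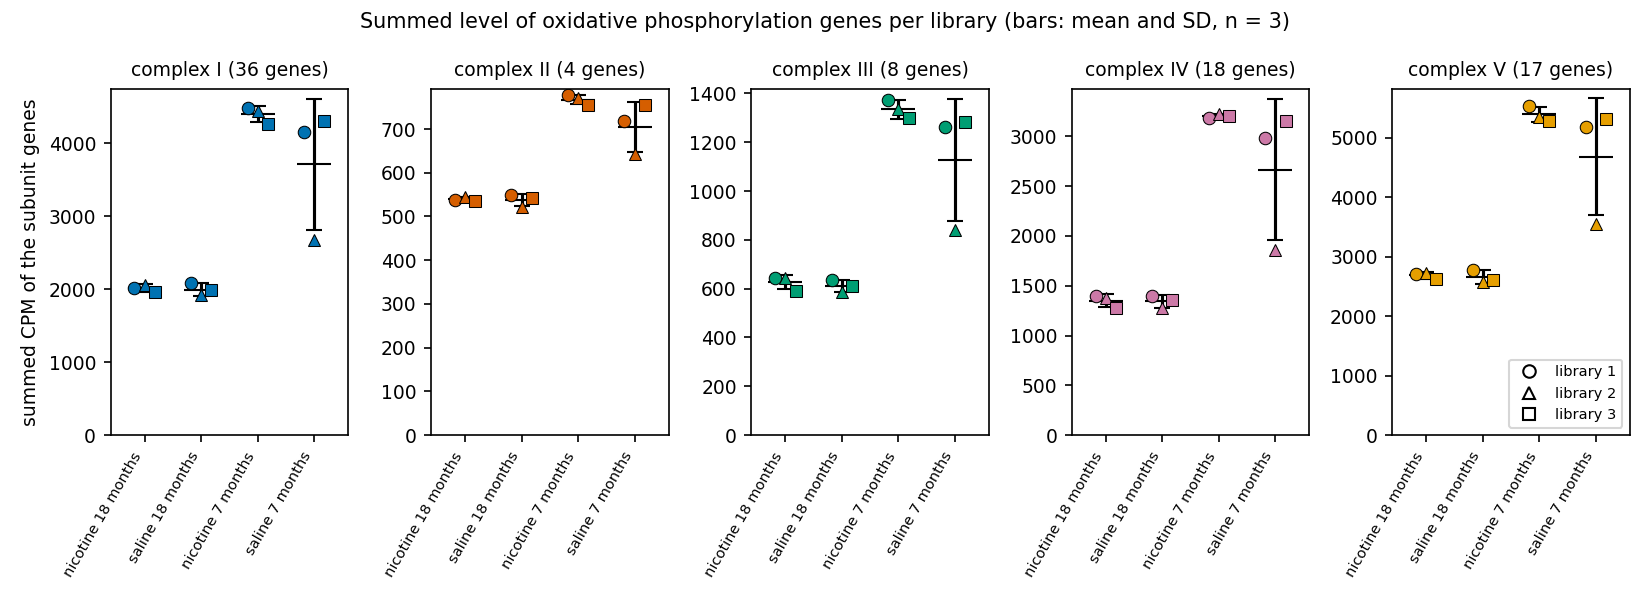
Summed CPM of the subunit genes of each complex in the 12 libraries, by group. Symbols are libraries 1 to 3 and bars give mean and SD (n = 3). In all 5 complexes the 6 libraries of 18 months lie below the 6 libraries of 7 months, and saline library 2 is the lowest of the 7-month libraries.

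The shares of complexes II, IV and V depended on the scale. With nicotine at 18 months complex V held 37.2% of the summed CPM and 28.8% of the summed level per kb. Of the summed CPM, complex IV held 18.7 ± 0.46% with nicotine and 18.8 ± 0.28% with saline at 18 months, against 21.2 ± 0.47% with nicotine and 20.5 ± 0.99% with saline at 7 months (SD, n = 3 each). Complex II held 7.47 ± 0.16% with nicotine and 7.53 ± 0.14% with saline at 18 months, against 5.08 ± 0.020% with nicotine and 5.61 ± 0.96% with saline at 7 months. Per kb of transcript, complex I genes held 29.2 ± 0.37% of the members' summed level with nicotine and 29.2 ± 0.16% with saline at 18 months, against 29.6 ± 0.42% with nicotine and 29.4 ± 0.27% with saline at 7 months (SD, n = 3 each). Complex II held 3.6 ± 0.11% with nicotine and 3.63 ± 0.050% with saline at 18 months, against 2.43 ± 0.028% with nicotine and 2.68 ± 0.44% with saline at 7 months. Its share was larger at 18 months within each treatment, by more than the SD of any group, and this was not tested. In 7-month saline library 2 the complex II share was 3.19% per kb, against 2.40 to 2.46% in the other 7-month libraries. It was 3.52 to 3.72% in the 18-month libraries. The longest Sdha transcript has 2900 nt, and the part of transcript length in this share was not tested. Sdha made up 125 of the 247 CPM per kb of complex II with nicotine at 18 months, against 145 of 386 at 7 months. Complex III, IV and V shares differed by at most 1 percentage point between the groups.

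Per kb of their longest transcript, the highest members were the same in most groups. Atp5b, the catalytic beta subunit of ATP synthase, was at 462 ± 7.30 CPM per kb with nicotine and 449 ± 23.2 with saline at 18 months, against 801 ± 33.8 with nicotine and 716 ± 145 with saline at 7 months (SD, n = 3 each). Cox4i1, the common form of the regulatory subunit of complex IV, was at 406 ± 29.1 CPM per kb with nicotine and 402 ± 23.0 with saline at 18 months, against 921 ± 29.1 with nicotine and 758 ± 209.6 with saline at 7 months. At 18 months with saline the first place in complex IV went to Cox8a at a mean of 411 CPM per kb, within 1 SD of Cox4i1. Ndufa4 led the complex I names and Sdha, the flavoprotein of succinate dehydrogenase, led complex II in all 4 groups. Uqcrh, the hinge protein of complex III, led its complex in 3 groups, and Uqcr11 was above it in 7-month nicotine libraries at 381 ± 11.7 against 361 ± 29.8 CPM per kb. The lowest were Ndufb2, Sdhc, Uqcrq and Atp5s, each in all 4 groups. For Ndufb2 this level rests on a long annotated transcript: with the median transcript length Ndufb2 was at 29.9 CPM per kb in 7-month saline libraries, against 16.5 with the longest.

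Complex IV has tissue isoforms, and the brain form was the abundant one in each pair. Cox4i2, a lung form, was at 0.447 to 2.10 CPM over the 12 libraries, against 285 to 729 CPM for Cox4i1. Among forms of heart and skeletal muscle, Cox6a2 was at 0.777 to 4.61 CPM, Cox7a1 at 0.560 to 3.80 CPM and Cox8b at 0 to 2.28 CPM. Their counterparts Cox6a1, Cox7a2 and Cox8a were at 180.1 to 543, 57.2 to 153 and 199 to 454 CPM. The testis forms Cox6b2, Cox7b2 and Cox8c were low too: Cox6b2 was at 0.852 to 7.43 CPM, Cox7b2 at 0.136 to 1.01 CPM, and Cox8c had no count in any of the 12 libraries, where a count of 0 allows up to 0.103 to 0.141 CPM per library (3 counts, counting error only). The c-ring of ATP synthase is built from 1 mature protein encoded by 3 genes, and Atp5g3 was at 132 to 358 CPM, Atp5g1 at 63.3 to 225 CPM and Atp5g2 at 40.5 to 119 CPM.

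Cox8b, a low isoform, varied widely between libraries. It had 16, 5 and 3 counts in the 18-month nicotine libraries and 3, 4 and 0 in the 18-month saline libraries, against 66, 7 and 17 in the 7-month nicotine libraries and 10, 7 and 36 in the 7-month saline libraries. The highest was nicotine library 1 at both ages, saline library 2 at 18 months and saline library 3 at 7 months. The same libraries had the most Ttr, the transthyretin gene of the choroid plexus: 32961, 74 and 50 counts with nicotine and 79, 1386 and 54 with saline at 18 months, against 169794, 977 and 10450 with nicotine and 3048, 5652 and 40877 with saline at 7 months. The part of choroid plexus RNA in the Cox8b values was not tested.

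The age comparison, named in the study's title, showed lower subunit levels at 18 months in all 5 complexes. With nicotine, 80 of the 82 members tested were lower at 18 months at an adjusted p under 0.05 and none was higher (edgeR quasi-likelihood test, Benjamini-Hochberg over all genes), where 29.8% of all genes were called lower, 29.5% higher and 59.3% in either direction. With saline 79 of 82 were lower and none was higher, where 24.6% of all genes were called lower, 21.5% higher and 46.1% in either direction. The members' median log2 fold change was -1.25 with nicotine and -1.02 with saline, and over all genes tested it was -0.027 and -0.029. All 82 members had a fold change below 0 in both comparisons, where 51.3% of all genes did with nicotine and 52.1% with saline. Every 18-month library was below every 7-month library of the same treatment for 81 members with nicotine (34.4% of all genes; the reverse held for 34.5%) and for 79 with saline (25.6% of all genes; the reverse held for 24.1%). The nicotine and saline comparisons share no library. Without 7-month saline library 2 the saline comparison called 81 members, with a median of -1.19. Over all genes it then called 11793 of 19539, with 5691 lower. Summed erythrocyte markers (5 genes) were also lower at 18 months, at 35.4 to 129 CPM against 138 to 350 CPM at 7 months, and their part in the members' difference was not tested.

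**Figure D2:**
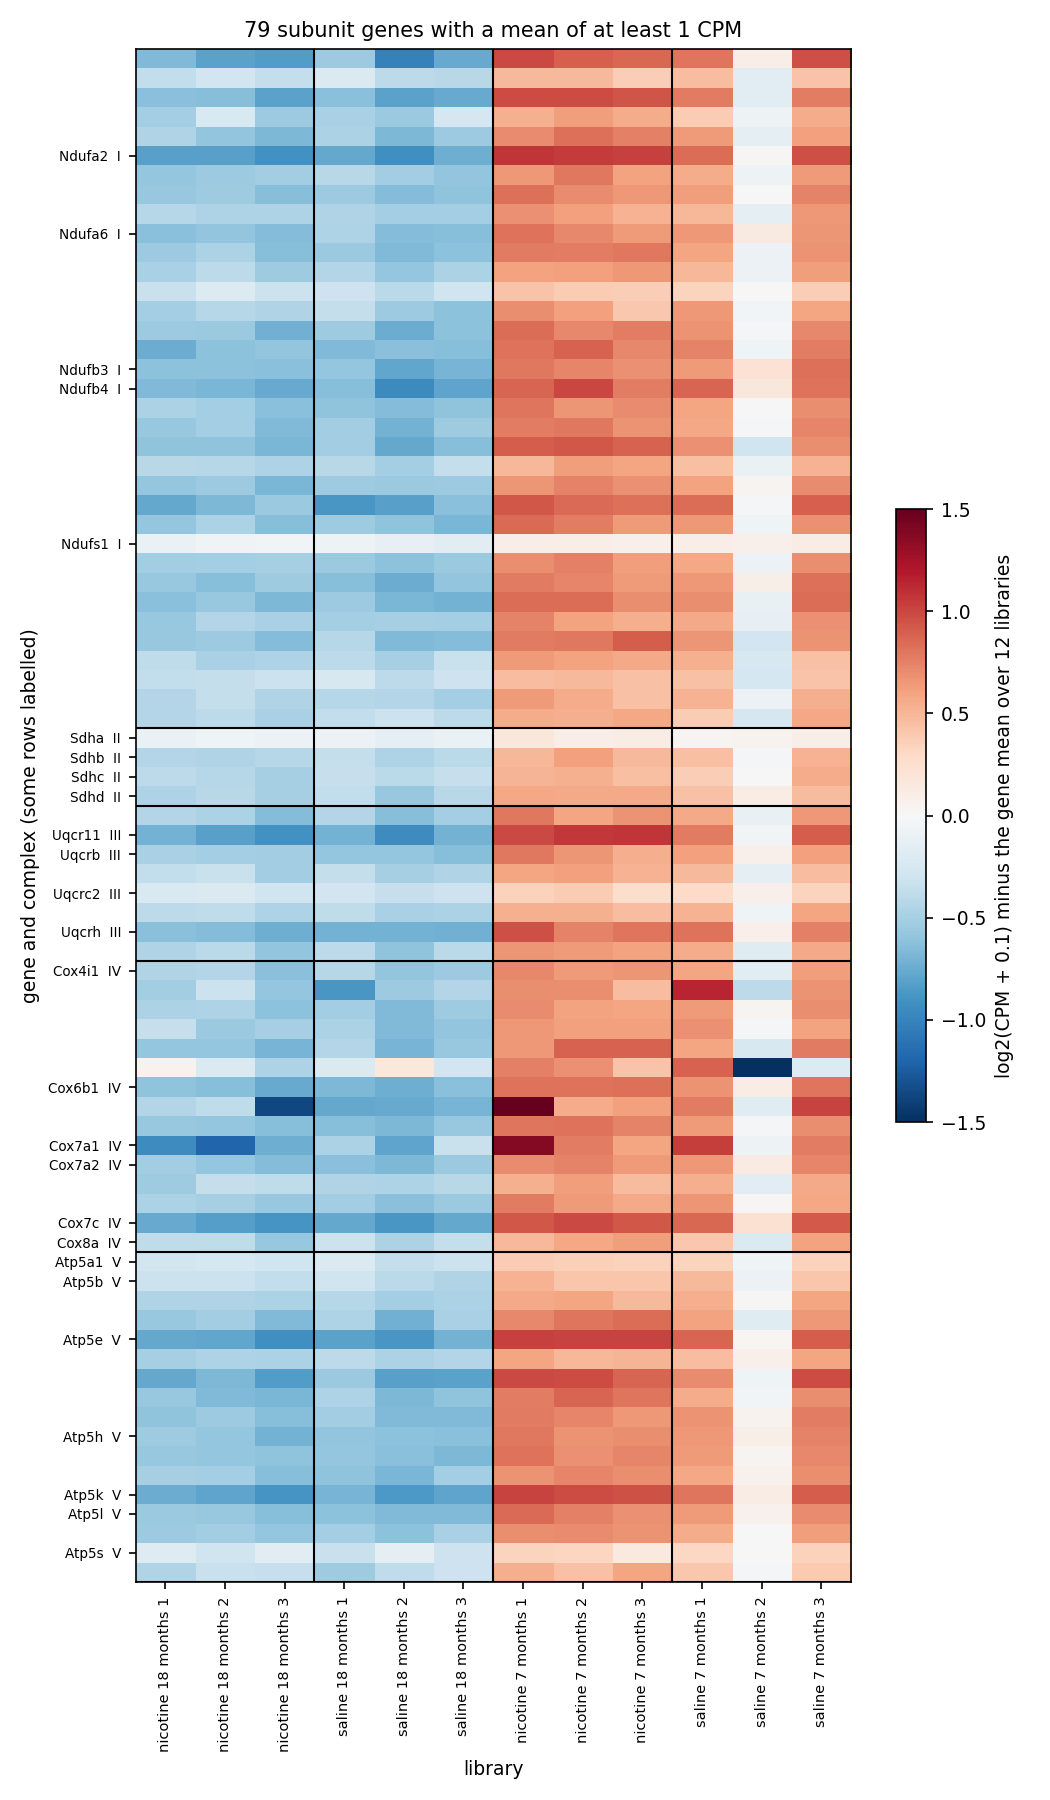
Log2(CPM + 0.1) minus the gene's mean over all 12 libraries, for 79 of the 80 members with a mean of at least 1 CPM, ordered by complex, with some rows labelled. Colours are capped at 1.5. All 18-month columns are blue for nearly every gene, 5 of the 7-month columns are red, and 7-month saline library 2 is pale. Ndufs1 and Sdha are pale throughout.

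By complex, the median log2 fold change of 18 against 7 months was -1.30 with nicotine and -1.02 with saline for complex I. For complex II it was -0.96 with nicotine and -0.72 with saline, and for complex III it was -1.15 and -0.88. Complex IV had -1.28 with nicotine and -1.10 with saline, and complex V had -1.32 and -1.02. A fold change below -1, a level under 1/2 of that at 7 months, was seen in 63 members with nicotine and 44 with saline. The share of all genes below -1 was not counted. None of the 4 complex II genes was among the 44, and Sdhd alone was among the 63. These are counts and medians over genes that share libraries, and the differences between complexes were not tested. Transcript length differed as well. Its median was 2021 nt for the catalytic genes of complex II and 2201 nt for its membrane anchors, against 684 nt for the widely expressed complex IV subunits. The part of transcript length in the differences between complexes was not tested.

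**Figure D3:**
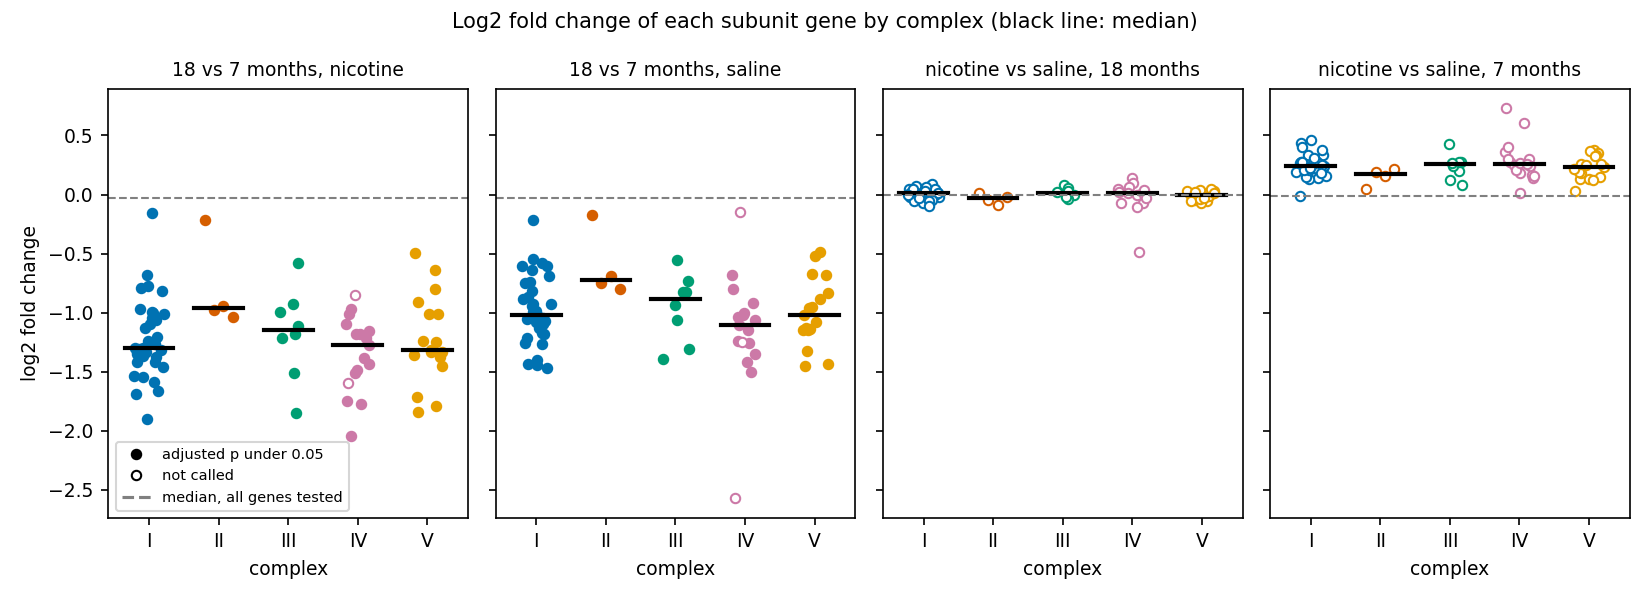
Log2 fold change of each tested member by complex in the 4 comparisons. Filled points have an adjusted p under 0.05, black lines are medians and the dashed line is the median of all genes tested. In both age comparisons nearly all points are filled and lie below 0, and in both nicotine comparisons none is filled, with 81 of 82 above 0 at 7 months.

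Within complex I the smallest p-values belonged to small accessory subunits, which surround the catalytic core. Ndufb3 (chr1:58586384-58595964, plus strand, GRCm38), an accessory subunit of the membrane arm, had 38.4, 38.7 and 38.3 CPM with nicotine and 39.7, 34.4 and 36.5 CPM with saline at 18 months, against 103, 98.6 and 95.5 CPM with nicotine and 92.0, 68.8 and 105 CPM with saline at 7 months. The age groups did not overlap, and saline library 2 was the lowest at 7 months. The log2 fold change was -1.37 ± 0.13 with nicotine (SE, adjusted p = 2.68e-05 by edgeR) and -1.27 ± 0.13 with saline (adjusted p = 7.51e-05). Ndufb4 and Ndufa6, accessory subunits as well, fell by 1.44 and 1.09 on the log2 scale with saline. With nicotine Ndufa6 fell by 1.35 and Ndufa2 by 1.90, the lowest fold change of the complex. Ndufs1 lay at the other end: the large iron-sulfur subunit of the NADH-binding arm had 122, 126 and 127 CPM with nicotine and 123, 119.8 and 115 CPM with saline at 18 months, against 139.7, 139 and 137 CPM with nicotine and 139, 137 and 139.9 CPM with saline at 7 months. Its log2 fold change was -0.16 ± 0.061 with nicotine (adjusted p = 0.0429 by edgeR) and -0.22 ± 0.061 with saline (adjusted p = 0.0124). Its 7-month saline library 2 was lowest of that age by a narrow margin. The call of Ndufs1 with nicotine was lost when any 1 of 8 libraries was left out, with adjusted p-values up to 0.145 (edgeR). With transcript length and GC content modelled, its adjusted p was 0.425 with nicotine and 0.371 with saline. The 29 accessory subunits, among which Ndufa4 was counted by its name, had medians of -1.32 with nicotine and -1.07 with saline. All 29 were called lower in both comparisons, and their median transcript length was 861 nt.

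In complex II, Sdhd (chr9:50596357-50603812, minus strand), a membrane anchor, had 48.0, 49.3 and 46.9 CPM with nicotine and 51.1, 44.4 and 49.5 CPM with saline at 18 months, against 98.7, 98.1 and 98.2 CPM with nicotine and 89.3, 71.1 and 91.5 CPM with saline at 7 months. All 6 libraries of 18 months were below all 6 of 7 months. It fell by 1.04 ± 0.097 on the log2 scale with nicotine (SE, edgeR adjusted p = 2.68e-05) and by 0.80 ± 0.097 with saline (adjusted p = 0.000169). Sdhb, the iron-sulfur subunit, and Sdhc, the other anchor, had log2 fold changes of -0.98 and -0.94 with nicotine, and of -0.75 and -0.69 with saline. Sdha, which holds the succinate site, differed far less: 359, 366 and 361 CPM with nicotine and 362, 349 and 358 CPM with saline at 18 months, against 432, 411 and 414 CPM with nicotine and 396, 399 and 409.5 CPM with saline at 7 months. Its fold change was -0.21 ± 0.063 with nicotine (edgeR adjusted p = 0.0115) and -0.17 ± 0.063 with saline (adjusted p = 0.0379). With saline the Sdha call was lost when any 1 of 10 libraries was left out (all but nicotine library 1 and saline library 2 of 7 months), with adjusted p-values up to 0.122 (edgeR). With transcript length and GC content modelled, the fold change of Sdha with saline was -0.053 (edgeR adjusted p = 0.369). Its call with saline was also lost with RLE size factors (edgeR adjusted p = 0.0995) and kept with DESeq2 (adjusted p = 0.00656).

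In complex III the small subunits had lower fold changes than the large core proteins, a difference that was not tested. Median transcript length was 535 nt for the small subunits and 1653 nt for the core and Rieske proteins. With transcript length and GC content modelled, the small subunits had medians of -1.08 with nicotine and -0.97 with saline. The core and Rieske proteins then had -0.415 and -0.36. Uqcrh (chr4:116066965-116075071, minus strand) had 71.4, 70.1 and 66.5 CPM with nicotine and 67.3, 67.3 and 67.1 CPM with saline at 18 months, against 216, 185 and 192 CPM with nicotine and 195, 116 and 187 CPM with saline at 7 months. No library of 18 months reached the lowest of 7 months, and the log2 fold change was -1.51 ± 0.16 with nicotine (edgeR adjusted p = 3.87e-05) and -1.31 ± 0.16 with saline (adjusted p = 0.00015). Uqcr11, a small structural subunit, fell by 1.85 with nicotine and by 1.39 with saline, and Uqcrb, the ubiquinone-binding protein, fell by 1.18 and 1.07. The core proteins Uqcrc1 and Uqcrc2 and the Rieske iron-sulfur protein Uqcrfs1 had log2 fold changes of -0.99, -0.58 and -0.93 with nicotine, and of -0.73, -0.56 and -0.82 with saline. All 8 genes of complex III were called in both age comparisons.

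Cox7c, a small subunit of cytochrome c oxidase, had the smallest p of all members in both age comparisons. The gene (chr13:86044816-86046904, minus strand) had 53.8, 51.2 and 49.0 CPM with nicotine and 53.3, 49.6 and 53.2 CPM with saline at 18 months, against 174, 180.1 and 174 CPM with nicotine and 164, 107 and 172 CPM with saline at 7 months. Its log2 fold change was -1.78 ± 0.14 with nicotine (edgeR adjusted p = 1.35e-05) and -1.51 ± 0.14 with saline (adjusted p = 5.35e-05). Cox6b1, which faces the intermembrane space, and Cox7a2 followed, with -1.49 and -1.28 with nicotine and -1.24 and -1.15 with saline. The 10 widely expressed subunits were all lower at 18 months, from -1.78 to -1.01 with nicotine and from -1.51 to -0.68 with saline, where Cox8a had the smallest change. Cox4i1 fell by 1.19 with nicotine and by 0.92 with saline, and Cox7a2l had -0.97 and -0.80. Of the low isoforms, Cox4i2, Cox6b2 and Cox7a1 were called lower in both age comparisons. Cox7b2 was called with nicotine (adjusted p = 0.034) but not with saline (adjusted p = 0.0895), at 26 counts or fewer per library. Cox6a2 (fold change -0.85 with nicotine and -0.15 with saline) and Cox8b (-1.59 and -2.57) did not pass the threshold in either. Striated muscle markers (5 genes) summed to 4.26 to 5.99 CPM at 18 months and 7.30 to 11.2 CPM at 7 months, and their part in the values of the muscle isoforms was not tested.

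In complex V, Atp5k (chr5:108433244-108434448, minus strand), the e subunit of the membrane part, had 44.7, 43.5 and 40.7 CPM with nicotine and 46.4, 41.3 and 43.4 CPM with saline at 18 months, against 152, 149 and 146 CPM with nicotine and 131, 81.3 and 141 CPM with saline at 7 months. The log2 fold change was -1.79 ± 0.16 with nicotine (edgeR adjusted p = 2.3e-05) and -1.43 ± 0.16 with saline (adjusted p = 0.000117), with no overlap between the ages. Atp5l, the g subunit beside it, fell by 1.36 with nicotine and 1.15 with saline. Atp5e, the epsilon subunit of the F1 head, fell by 1.85 with nicotine, and Atp5h, the d subunit of the peripheral stalk, fell by 1.14 with saline. The 3 c-ring genes were all called lower, with -1.71 for Atp5g1, -1.45 for Atp5g2 and -1.32 for Atp5g3 with nicotine, and -1.33, -1.02 and -1.15 with saline. The catalytic head genes Atp5a1 and Atp5b had fold changes nearer 0, with -0.64 and -0.80 with nicotine and -0.52 and -0.68 with saline. Median transcript length was 1735 nt for the head and central stalk genes and 544 nt for the small membrane subunits. With length and GC content modelled, the head and stalk genes had medians of -0.75 with nicotine and -0.57 with saline. The small membrane subunits then had -1.25 and -1.08. Atp5s had the smallest fold change of the complex in both comparisons, -0.49 with nicotine and -0.49 with saline.

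The promoters of the gene with the smallest p in each complex (with saline) are shown because members moved together and because nuclear respiratory factor 1 (NRF1) and the ETS family factor GABP (NRF2) are known regulators of such genes. Each is RefSeq sequence of GRCm38.p6 in the direction of the gene, from 250 bases before the annotated start to 50 after it, with matches to the NRF1 consensus or to the ETS motif CCGGAAG, on either strand, in capitals. The windows are chr1:58586147-58586446, plus strand for Ndufb3, chr9:50603800-50604099, minus strand for Sdhd, chr4:116075021-116075320, minus strand for Uqcrh, chr13:86046746-86047045, minus strand for Cox7c and chr5:108434350-108434649, minus strand for Atp5k.
Ndufb3: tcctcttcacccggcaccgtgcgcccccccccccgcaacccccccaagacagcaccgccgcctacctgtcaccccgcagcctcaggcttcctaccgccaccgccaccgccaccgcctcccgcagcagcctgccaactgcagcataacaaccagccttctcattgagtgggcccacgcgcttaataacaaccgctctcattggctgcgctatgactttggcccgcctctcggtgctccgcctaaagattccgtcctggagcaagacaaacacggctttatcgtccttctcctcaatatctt
Sdhd: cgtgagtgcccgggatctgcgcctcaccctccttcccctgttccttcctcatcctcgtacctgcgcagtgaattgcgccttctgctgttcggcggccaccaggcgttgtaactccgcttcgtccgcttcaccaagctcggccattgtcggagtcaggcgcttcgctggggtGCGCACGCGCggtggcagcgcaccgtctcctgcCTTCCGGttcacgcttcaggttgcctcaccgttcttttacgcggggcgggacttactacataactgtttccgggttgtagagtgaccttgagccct
Uqcrh: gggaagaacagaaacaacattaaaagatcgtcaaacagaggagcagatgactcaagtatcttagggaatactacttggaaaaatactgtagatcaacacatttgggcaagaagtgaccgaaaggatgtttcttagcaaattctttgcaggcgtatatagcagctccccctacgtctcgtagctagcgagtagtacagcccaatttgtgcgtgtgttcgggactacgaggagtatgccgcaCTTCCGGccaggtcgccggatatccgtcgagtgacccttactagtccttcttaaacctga
Cox7c: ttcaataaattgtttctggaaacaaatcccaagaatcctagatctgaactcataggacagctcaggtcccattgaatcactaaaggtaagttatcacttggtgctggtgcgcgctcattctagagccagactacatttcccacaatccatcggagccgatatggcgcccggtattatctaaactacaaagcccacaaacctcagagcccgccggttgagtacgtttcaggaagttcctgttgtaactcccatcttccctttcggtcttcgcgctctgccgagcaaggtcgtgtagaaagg
Atp5k: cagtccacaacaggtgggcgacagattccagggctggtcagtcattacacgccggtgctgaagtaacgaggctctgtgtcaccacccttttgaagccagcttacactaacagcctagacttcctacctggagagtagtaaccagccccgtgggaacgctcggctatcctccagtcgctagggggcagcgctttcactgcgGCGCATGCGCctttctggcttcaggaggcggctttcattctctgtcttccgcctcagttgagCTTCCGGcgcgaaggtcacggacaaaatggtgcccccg
Sdhd and Atp5k held both motifs, Uqcrh held the ETS motif alone, and neither exact motif was in the windows of Ndufb3 and Cox7c.

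A promoter window was matched for 69 of the 83 members. The NRF1 motif was in 17 of them (24.6%) and in 5.19% of 27025 genes with a window. The ETS motif was in 16 (23.2%) against 9.93% of all genes. The consensus of YY1, another factor known at these promoters, was in 6 (8.70%) against 0.995%, and the motif GGGGCGGGG of SP1 was in 12 (17.4%) against 12.9%. The windows differ in base composition, and a match is a description of the sequence alone.

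Transcript length moved with the age difference across all genes. Over 16945 genes with a length, Spearman's rho between the longest transcript and the log2 fold change of 18 against 7 months was 0.505 with nicotine and 0.451 with saline. Over the 82 members it was 0.626 and 0.601, and these genes share the same libraries. Most members are short: 48 have a longest transcript of at most 1000 nt. Those 48 had a median of -1.34 with nicotine and -1.10 with saline. The 1548 other genes up to this length had -0.61 and -0.43, and among the 265 of them with a mean of at least 20 CPM the medians were -1.15 and -0.88, against -1.33 and -1.08 for the 42 members at that level. With length and GC content modelled as offsets, the members' median moved to -0.92 with nicotine (77 called) and to -0.79 with saline (75 called). Of all 16945 genes, 7943 were then called with nicotine (4434 lower) and 6277 with saline (3369 lower). The part of transcript length in the rest of the age difference was not tested.

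**Figure D4:**
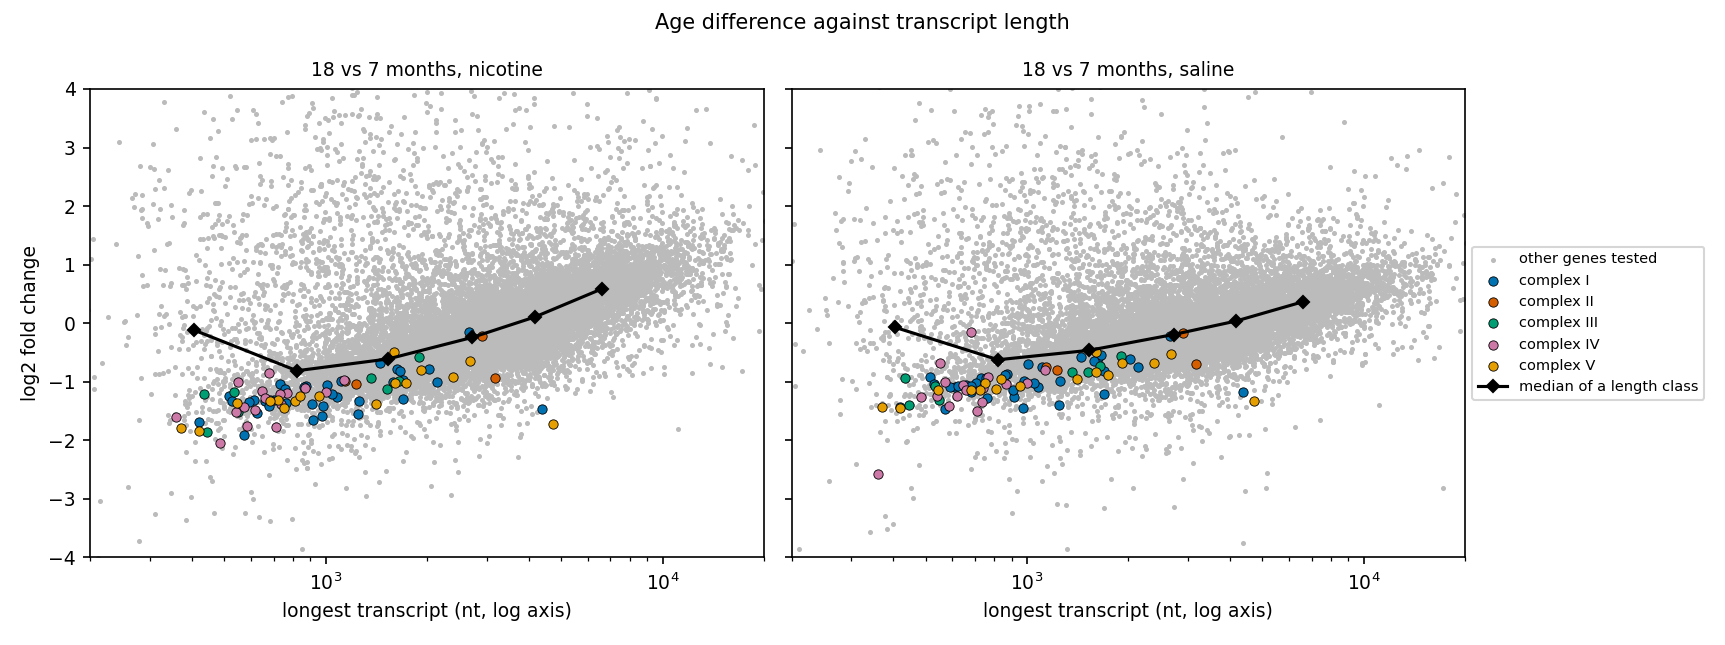
Log2 fold change of 18 against 7 months against the longest annotated transcript, with the members coloured by complex, other genes in grey and the median of each length class in black. Genes beyond 4 in either direction lie outside the frame. The median member lies below the median of all genes in each class up to 3500 nt, and Ndufs1 and Sdha lie near it.

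Nicotine against saline at 7 months gave higher mean levels of nearly all members, but no member passed the test. Of 82 tested, 0 had an adjusted p under 0.05 (edgeR), where 0.0114% of all genes were called (0.00568% higher and 0.00568% lower). An unadjusted p under 0.05 (edgeR) was seen for 0 members and for 1144 of 17596 genes. DESeq2 called 0 members and 81 genes. The log2 fold change was above 0 for 81 members and below 0 for 1 (48.7% and 51.3% of all genes), with a median of 0.24 against -0.0085 over all genes. By complex the medians were 0.24 (I), 0.17 (II), 0.25 (III), 0.25 (IV) and 0.23 (V). For 24 members every nicotine library was above every saline library, where 9.03% of all genes were; the reverse held for 8.39% of all genes. Saline library 2 was the lowest of the 6 libraries for 81 of the 82 members, all but Sdha, at a median log2 ratio of -0.67 to the mean of saline libraries 1 and 3. The share of all genes lowest in that library was not counted. Transcripts of up to 1000 nt took 3.03% of its counts, against 4.72 to 5.06% in the other 7-month libraries. Without saline library 2 the members' median was 0.058, against 0.0019 over all genes. Of the 82 members 70 were then above 0, and the share of all genes above 0 was not counted. The members' median also moved in other settings. Without saline library 3 it was 0.37, and with length and GC offsets it was 0.12. Over 16185 genes with a length, Spearman's rho between the longest transcript and the log2 fold change was -0.463, and over the members -0.432. All genes up to 600 nt had a median of 0.17, and those above 600 and up to 1000 nt had 0.19. Members of these lengths had 0.29 and 0.23. The part of transcript length in the members' difference was not tested.

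The members with the smallest p in each complex were also low in that library. Ndufb7, an accessory complex I subunit, had 82.4, 83.8 and 81.3 CPM with nicotine and 70.9, 35.9 and 71.6 CPM with saline, a log2 fold change of 0.46 ± 0.24 (SE, edgeR adjusted p = 0.656). Ndufa11, of the membrane arm, had 104, 105 and 102 CPM with nicotine and 90.9, 47.0 and 90.2 CPM with saline, a fold change of 0.44 ± 0.23. All nicotine values of both genes were above the saline values, and library 2 was far below saline libraries 1 and 3. Uqcr11 had 164, 172 and 173 CPM with nicotine and 141, 79.9 and 154 CPM with saline, a fold change of 0.43 ± 0.22. The core protein gene Uqcrc1 had a fold change of 0.27 ± 0.16. Atp5g2 had 111, 119 and 114 CPM with nicotine and 96.3, 63.4 and 105 CPM with saline, a fold change of 0.37 ± 0.17, and Atp5sl one of 0.25 ± 0.13. In these genes too, the groups were separate and library 2 was the lowest. Cox6c, a complex IV subunit, had 297, 298 and 285 CPM with nicotine and 265, 168 and 276 CPM with saline, a fold change of 0.30 ± 0.17, and Cox6a1 had one of 0.36 ± 0.23 with groups that overlapped. For Sdhd and Sdhb the values were 0.22 ± 0.11 and 0.19 ± 0.15. The adjusted p was 0.656 for all of these but Sdhb, at 0.66.

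**Figure D5:**
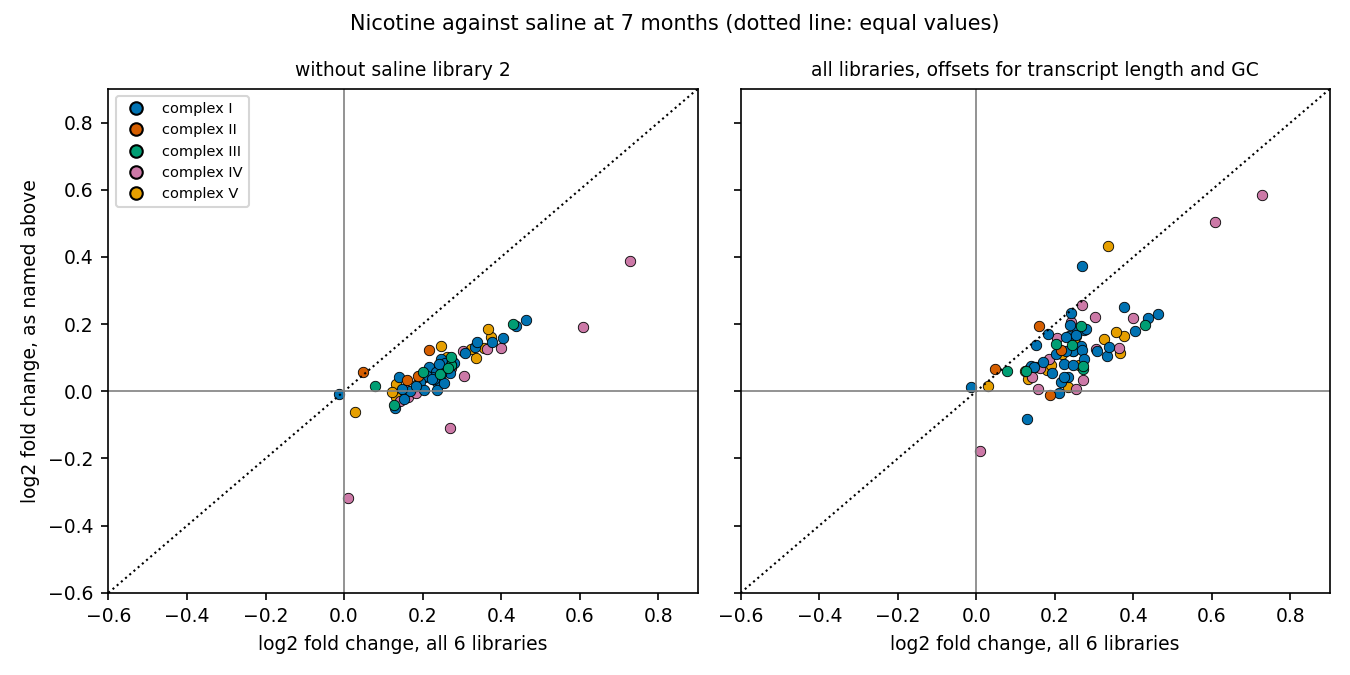
Log2 fold change of nicotine against saline at 7 months for each member with all 6 libraries (x axis) and, on the y axis, without saline library 2 (left) or with offsets for transcript length and GC content (right). Nearly all points lie below the dotted line of equal values, and the median falls to 0.058 on the left and 0.12 on the right, against 0.24 with all libraries and no offsets.

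At 18 months nicotine and saline libraries had like levels of the members. None of the 80 tested passed (edgeR, 0.0440% of all genes called, 0.0220% higher and 0.0220% lower). An unadjusted p under 0.05 (edgeR) was seen for 0 members and for 1225 of 18196 genes. DESeq2 called 0 members and 57 genes. The log2 fold change was above 0 for 42 members and below 0 for 38 (48.1% and 51.9% of all genes), with a median of 0.0073. This median was between -0.016 and 0.033 when single libraries were left out. Every member but Cox7a1 and Cox4i2 lay between -0.11 and 0.10. Cox7a1 had 0.679, 0.560 and 0.804 CPM with nicotine and 0.983, 0.766 and 1.09 CPM with saline, a fold change of -0.48 ± 0.27 (SE, edgeR adjusted p = 0.81), with overlapping groups. The other members with the 2 smallest p-values of their complex were as follows. Fold changes were 0.096 ± 0.064 for Cox5b, -0.088 ± 0.051 for Sdhc, -0.045 ± 0.043 for Sdhb, -0.094 ± 0.058 for Ndufv3 and -0.074 ± 0.051 for Ndufb9. They were 0.085 ± 0.053 for Uqcrb, 0.051 ± 0.046 for Uqcrc2, -0.055 ± 0.045 for Atp5f1 and -0.069 ± 0.065 for Atp5g2. Separate groups were seen for 3 members, with nicotine above saline in 2 (6.65% of all genes) and below in 1 (5.12%). Replicate spread was small here, with a median coefficient of variation of 4.19% with nicotine and 5.31% with saline, against 4.33% with nicotine and 24.8% with saline at 7 months. Cox7b2, Cox8b and Cox8c did not reach the filter on low counts.

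The nicotine difference at 18 months minus that at 7 months was tested directly, and 0 of 82 members passed (edgeR, 0.00522% of all genes called). An unadjusted p under 0.05 (edgeR) was seen for 0 members and for 1504 of 19171 genes. DESeq2 called 0 members and 37 genes. The members' median was -0.24, with 79 members below 0 (48.2% of all genes). Cox4i2, Cox8b and Ndufs1 were above 0 (51.8% of all genes). This difference shares its libraries with the comparisons within each age. The smallest p was that of Atp5g2, at -0.43 ± 0.21 (SE, adjusted p = 0.623), followed within their complexes by Uqcr11 at -0.46 ± 0.26, Sdhd at -0.24 ± 0.14, Ndufa2 at -0.43 ± 0.26 and Cox7a1 at -0.79 ± 0.47. Without 7-month saline library 2 the median was -0.059, with 61 of 82 below 0, and without 7-month saline library 3 it was -0.39. With length and GC offsets it was -0.12, with 76 below 0. The shares of all genes below 0 in these settings were not counted.

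Counts for other genes of the pathway stand against 29.8% of all genes called lower and 29.5% higher at 18 months with nicotine, and 24.6% lower and 21.5% higher with saline. Of 14 subunits and carriers whose names fall outside the rule, 14 were lower at 18 months with nicotine and 13 with saline. Among them Ndufab1, the acyl carrier subunit of complex I, had log2 fold changes of -1.32 with nicotine and -1.17 with saline, and Usmg5, a small subunit of ATP synthase, of -1.31 and -1.20. All 76 mitochondrial ribosomal protein genes were lower with nicotine and 74 with saline, with medians of -0.95 and -0.73. The 265 other genes of at most 1000 nt and at least 20 CPM had lower medians, -1.15 and -0.88. The part of transcript length in the values of these lists was not tested. Among 43 assembly factors 31 were lower and 2 higher with nicotine, and 28 and 2 with saline. Uqcc2, which assists complex III assembly, fell by 1.44 and 1.19, and the copper chaperone gene Cox17 by 1.23 and 1.07. The tricarboxylic acid cycle list had 14 of 18 lower with nicotine and 12 with saline, with Idh3g at -0.78 and -0.65 and Pdhb at -0.70 and -0.65. Glycolysis had 14 of 17 lower and 1 higher with nicotine, and 12 and 1 with saline. Pgk1 was at -0.85 and -0.66, and Ldhb at -1.15 and -0.97.

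Of the 13 subunits encoded in mitochondrial DNA 5 were lower and 2 higher at 18 months in each age comparison, near the share of all genes called in either direction, 59.3% with nicotine and 46.1% with saline. The complex I subunit ND3 fell by 1.41 with nicotine and 1.35 with saline, the complex IV subunit COX3 fell by 1.10 and 0.93, and ND5 rose by 1.62 with nicotine (edgeR adjusted p = 0.000676). Of 15 regulators of mitochondrial gene expression 7 were higher and 5 lower with nicotine, a larger part than the 59.3% of all genes. With saline 3 were higher and 5 lower, near the 46.1% of all genes. These differences from the share of all genes were not tested. The coactivator gene Ppargc1b rose by 1.83 ± 0.18 with nicotine and 1.34 ± 0.18 with saline (SE), at 49.9 ± 1.7 CPM with nicotine and 49.5 ± 2.5 CPM with saline at 18 months, against 14.0 ± 0.61 CPM with nicotine and 19.5 ± 6.8 CPM with saline at 7 months (SD, n = 3 each). Esrra, a nuclear receptor that acts with it, fell by 0.70 with nicotine and 0.51 with saline. Other called regulators went both ways. Tfb2m and Gabpa fell by 0.42 and 0.44 with saline, and Pprc1 and Yy1 rose by 0.60 and 0.56 with nicotine. Nicotine against saline called 0 genes of any of these lists at either age. At 7 months its fold change was above 0 for 76 of 76 mitochondrial ribosomal protein genes and 17 of 17 glycolysis genes. It was above 0 for 14 of 14 subunits and carriers outside the rule and 32 of 43 assembly factors. For the tricarboxylic acid cycle it was 12 of 18, for mitochondrial DNA subunits 7 of 13 and for regulators 7 of 15 (48.7% of all genes).

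Reads may be shared with other loci for some members. For 20 of them a transcript from elsewhere in the genome was at least 95% identical across 200 nt or longer, and for 14 such a copy had its own row. Only for Cox7a2l did a copy hold over 5% of the member's counts, Gm6969 with 15.1%, so its values are uncertain. Exons of 22 members overlap another gene by 50 nt or more, and as the strand setting of the counting is not given, reads of Cox4i1 and Emc8, Atp5j and Gabpa, or Ndufb11 and Rbm10 cannot be told apart there.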

How the data were processed

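The deposited tables, 1 per age, hold raw counts of fragments per gene. Alignment used TopHat and GRCm38, per the submitters' processing notes; its version, the counter, the annotation and the strand setting are not given in the sources used here. Per the labels' protocols a small RNA kit was used, although the counts cover mRNA. The tables have 44788 rows (7 months) and 44786 rows (18 months), and 44760 names were joined.

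Tests used edgeR 4.0.16 in R 4.3.3 (TMM, filterByExpr with a minimum count of 10, quasi-likelihood F-test, Benjamini-Hochberg at 0.05). Nicotine was set against saline within each age's 6 libraries. Age comparisons and the difference between ages came from 1 fit of 12 libraries and 4 groups. The tests were checked on simulated counts. Transcript lengths are GENCODE M21 (32231 genes), and copies were found with BLAST 2.17.0. Members, lists, roles and motifs were chosen with earlier results of these data known. Named genes are the 3 with the smallest p per complex (2 where none passed), extremes per kb, paralogs and core subunits, and others were chosen after their values were seen. Alternatives covered scaling, filters, DESeq2 1.42.0, length and GC offsets, left-out libraries and a replicate block. The values of 1 member on its own are not reported here. Replicate numbers were not treated as pairs. Depth per library is its total count, and the limit set by a count of 0 covers counting error only.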

Additional observations from a re-analysis of the deposited data

How the results depend on the processing

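No call over the members changed direction. The count of members called stayed at 0 in all nicotine comparisons, and ran from 75 to 81 in the saline age comparison and from 77 to 81 in the nicotine one. Over all genes the age calls ran from 5852 to 11793 with saline and from 7943 to 12688 with nicotine. With length and GC offsets the medians were -0.79 for 18 against 7 months with saline and -0.92 with nicotine (-0.91 when 7-month saline library 2 was also left out), 0.12 for nicotine at 7 months and -0.12 for the difference. With both changes, an alternative chosen after seeing the data, the difference of the nicotine effect between ages was 0.0017. Leaving out single libraries gave medians from 0.058 to 0.37 for nicotine at 7 months, -0.016 to 0.033 at 18 months, -0.39 to -0.059 for the difference, -1.27 to -1.23 for age with nicotine and -1.19 to -0.88 with saline. The lowest 7-month value and the difference nearest 0 were those without saline library 2 of 7 months. With median instead of longest transcript lengths the members' summed level per kb was 8494 CPM with nicotine and 8430 CPM with saline at 18 months and 19280 CPM with nicotine at 7 months, against 6865, 6820 and 15900 CPM. Single members changed their side of the threshold in 62 combinations of gene and setting, all in the age comparisons, 53 of them losing the call (mainly Sdha and Ndufs1).

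Same-number libraries deviated from their group means with correlations of -0.098 to 0.19, and libraries of different numbers with -0.17 to 0.15. With 3 libraries per group these values cannot decide whether the numbers are pairs. Library 1 of both 7-month groups has another prefix in its description than the other 7-month libraries, and its meaning is not given here. Without both, the nicotine median at 7 months was 0.30 with 0 members called. The age comparisons then called 78 members with nicotine and 76 with saline (10469 and 5852 of 19319 genes). With the replicate block 79 (nicotine) and 78 (saline) members were called in the age comparisons and 0 in the others. Of all 19171 genes, the age comparisons then called 11017 with nicotine and 8511 with saline.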
